A study of Mus musculus with 4 samples.

Results

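The genes described here are 9 genes of the insulin-like growth factor (IGF) system: the ligand gene Igf1, the receptor gene Igf1r and the IGF-binding protein genes Igfbp1 to Igfbp7. They were chosen by name, with earlier results of these data known. Each was represented by 1 transcript cluster (a group of probes that covers a transcript) paired in the platform annotation with that gene alone, so 9 clusters of 28856 on the array were used. IGF1 and IGF2 are secreted growth factors that signal through the receptor tyrosine kinase IGF1R. Most of the secreted ligand is held by IGF-binding proteins, which lengthen its life and can either limit or deliver it to the receptor, and proteases that cut the binding proteins set it free. In the developing brain, IGF signalling is known for promoting the growth and survival of neural progenitors and young neurons.

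Microarrays read the expression of these genes in 4 sorted mouse cell populations, 1 array per population, without replicates. ESC-derived cells came from a 129SVEV line with GFP knocked in at the Lmx1a locus (LMX1A::GFP), kept on fibroblast feeders and then differentiated as floating aggregates (the SFEBq method). FGF8b and SHH were added early, and ascorbic acid, BDNF and N-2 supplement later. KSR, the serum replacement of the early medium, and N-2 both contain insulin. On day 9 the GFP+ cells were sorted by CORIN, which gave the populations CORIN+LMX1A::GFP+ and, as its counterpart, CORIN-LMX1A::GFP+. They are called cultured CORIN+ cells and cultured CORIN- cells here, and their arrays the culture pair. Fetal cells came from the ventral mesencephalon (VM) of C57BL/6N mice at E11.5 and were sorted into CORIN+ and CORIN- cells without a GFP gate. These are called VM CORIN+ cells and VM CORIN- cells, and their arrays the VM pair. CORIN is a surface protease of floor plate cells. How many cultures or embryos were pooled is not given in the sources used here.

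The values are log2 signals, and a difference is the log2 signal of one array minus that of another. With 1 array per population no difference has an error or a test, and a difference was counted when it reached 2-fold, which is 1 on the log2 scale. As a yardstick only, the scaled median absolute deviation of the difference over all clusters was 0.146 within the culture pair, 0.162 within the VM pair, 0.245 between the CORIN+ arrays and 0.259 between the CORIN- arrays. The 4 differences were built from the same 4 arrays, so any 3 of them fix the other. Between cultured and VM cells, the culture, the mouse strain, the GFP gate and the handling of the arrays cannot be told apart. Corin, whose product was sorted for, was 3.90-fold higher in the CORIN+ array of the culture pair and 17.7-fold higher in that of the VM pair. All 9 measured floor plate genes of a marker list, which includes Corin, had a higher signal in the CORIN+ array of each pair. Their median log2 difference was 0.66 in the culture pair and 0.74 in the VM pair. The differences ran from 0.085 to 1.96 in culture and from 0.17 to 4.15 in the VM. The highest in each pair was that of Corin, whose direction was set by the sort.

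The 9 genes fell into 3 patterns. Igfbp2, Igfbp3 and Igfbp5 were at least 2-fold higher in the culture arrays than in the VM arrays, in CORIN+ and in CORIN- cells. Igf1, Igfbp4 and Igfbp7 were highest in VM CORIN+ cells and lowest in cultured CORIN+ cells. Igf1r, Igfbp1 and Igfbp6 differed by at most 0.24 on the log2 scale between any 2 of the 4 arrays.

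**Figure D1:**
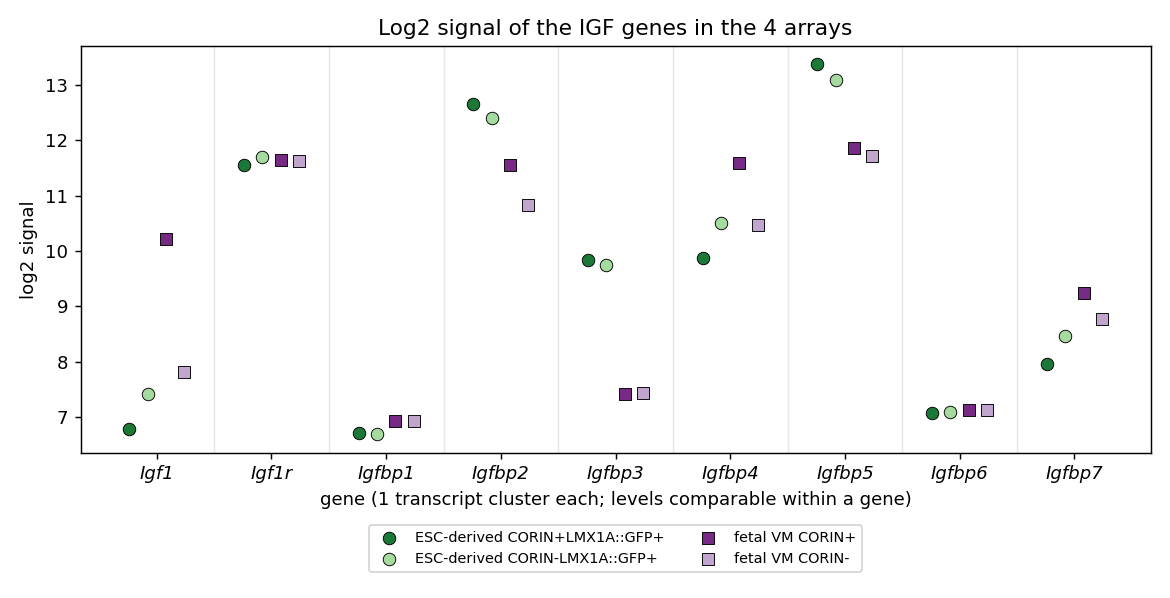
Log2 signal (vertical axis) of each of the 9 genes in the 4 arrays, with 1 point per array, circles for cultured cells and squares for VM cells, dark for CORIN+ and light for CORIN-. Levels can be compared within a gene but not between genes. Igfbp2, Igfbp3 and Igfbp5 have both circles above both squares, and Igf1 and Igfbp4 have the dark square on top, at 10.21 and 11.59.

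Igf1 encodes the ligand IGF1, a growth factor made by many tissues and by macrophages and mesenchymal cells. The 4 arrays gave log2 signals of 6.79 in cultured CORIN+ cells, 7.41 in cultured CORIN- cells, 10.21 in VM CORIN+ cells and 7.81 in VM CORIN- cells. The VM CORIN+ array thus stood far above the other 3, which all lay below the median signal of their array. Igf1 was 5.26-fold higher in VM CORIN+ than in VM CORIN- cells, and 10.7-fold lower in cultured than in VM CORIN+ cells. In the culture pair it was 1.54-fold lower in cultured CORIN+ cells, the opposite direction. With 3 of the 4 signals in the dim part of the range, any background left in the values would lower these folds, and the deposited table gives no measure of it. When 32 was added to each linear signal, the log2 difference between cultured and VM CORIN+ cells was -3.09 in place of -3.42.

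Igf1r encodes the receptor through which IGF1 and IGF2 signal. Log2 signals of 11.56 in cultured CORIN+ cells, 11.71 in cultured CORIN- cells, 11.65 in VM CORIN+ cells and 11.63 in VM CORIN- cells were measured. They spanned 0.15 on the log2 scale and lay between percentiles 92.8 and 93.9 of their arrays. In the VM pair the difference was 0.012, so the receptor transcript was at nearly the same level on 2 arrays between which its ligand Igf1 differed 5.26-fold. No error can be given for any of these differences.

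Igfbp2 encodes a binding protein that is abundant in the fetal brain and its fluids. The transcript had a log2 signal of 12.65 in cultured CORIN+ cells, 12.41 in cultured CORIN- cells, 11.55 in VM CORIN+ cells and 10.83 in VM CORIN- cells. Both culture arrays were above both VM arrays, and within each pair the CORIN+ array was the higher one. The differences between cultured and VM cells were 2.16-fold in CORIN+ cells and 2.99-fold in CORIN- cells. Within the pairs the CORIN+ array was 1.19-fold higher in culture and 1.64-fold higher in the VM.

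Igfbp3 encodes the main IGF carrier of the adult circulation. For this gene the log2 signal was 9.83 in cultured CORIN+ cells and 9.76 in cultured CORIN- cells, against 7.42 in VM CORIN+ cells and 7.44 in VM CORIN- cells. It was 5.34-fold higher in cultured than in VM CORIN+ cells and 4.97-fold higher in the CORIN- cells. Among the 9 genes these were the largest differences toward the cultured cells. Within the pairs the differences were 0.078 in culture and -0.025 in the VM, both smaller in size than the yardstick. The yardstick is a spread over clusters and gives no error for a single gene. Both VM signals lay below the median of their arrays, at percentiles 41.1 and 42.0.

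Igfbp5 encodes a binding protein that also attaches to extracellular matrix. On the log2 scale its signal was 13.37 in cultured CORIN+ cells, 13.08 in cultured CORIN- cells, 11.85 in VM CORIN+ cells and 11.71 in VM CORIN- cells. All 4 signals were bright, between percentiles 93.8 and 99.3 of their arrays. Igfbp5 was 2.86-fold higher in cultured than in VM CORIN+ cells and 2.59-fold higher in the CORIN- cells. The difference was 0.14 in the VM pair, beside a yardstick of 0.162, and 0.29 in the culture pair, beside 0.146. The yardstick gives no error for a single gene, so neither difference can be called.

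Igfbp4 encodes a binding protein that is best known for restraining IGF action until the protease PAPP-A cuts it. Its log2 signal was 9.87 in cultured CORIN+ cells, 10.50 in cultured CORIN- cells, 11.59 in VM CORIN+ cells and 10.48 in VM CORIN- cells. The CORIN- arrays of both sources were level, 0.020 apart, and the CORIN+ arrays lay on either side of them. Igfbp4 was 2.16-fold higher in VM CORIN+ than in VM CORIN- cells and 1.55-fold lower in cultured CORIN+ than in cultured CORIN- cells. Between the CORIN+ arrays it was 3.29-fold lower in the cultured cells. The study's own gene list gives the symbols Igfbp4 and Igf2 to other clusters, which the platform annotation pairs with Gng12 and Pon3. All values here, those of Igfbp4 and Igf2 included, are of the clusters that the platform annotation pairs with the gene.

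Igfbp7 encodes a relative that binds IGFs weakly and is a known product of blood vessels. Signals on the log2 scale were 7.96 in cultured CORIN+ cells, 8.47 in cultured CORIN- cells, 9.24 in VM CORIN+ cells and 8.77 in VM CORIN- cells. The order of the arrays was that of Igf1, with smaller steps. Igfbp7 was 2.43-fold lower in cultured than in VM CORIN+ cells. The other differences lay under 2-fold, at 1.43-fold lower in the CORIN+ array of the culture pair and 1.39-fold higher in that of the VM pair.

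Igfbp1 encodes a binding protein of the liver and decidua whose transcription insulin represses, and Igfbp6 encodes one that prefers IGF2. The log2 signals of Igfbp1 ran from 6.69 in cultured CORIN- cells to 6.93 in both VM arrays. Those of Igfbp6 ran from 7.07 in cultured CORIN+ cells to 7.13 in VM CORIN+ cells. All 8 signals lay in the dim part of the range, at percentiles 29.0 to 36.7 of their arrays. No detection calls were used, so whether either transcript was present at all was not determined.

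Counted by comparison, no member reached 2-fold in the culture pair, where the CORIN+ array was at least 2-fold higher in 0.353% of all clusters and lower by as much in 0.468%. In the VM pair, Igf1 and Igfbp4, 2 of 9 members, were at least 2-fold higher in CORIN+ cells, against 2.67% of all clusters, and none was lower, against 0.672%. Between the CORIN+ arrays, 3 members were at least 2-fold higher in cultured cells, against 2.7% of all clusters, and 3 were at least 2-fold lower, against 3.86%. Between the CORIN- arrays, 3 members were higher, against 3.94%, and none was lower, against 3.53%. Among the 19938 genes with a cluster of their own the shares between the CORIN+ arrays were 2.98% higher and 4.37% lower. At 1.5-fold, 2 members were lower in the culture pair, against 1.98% of all clusters, and 3 were higher in the VM pair, against 4.97%. At 3-fold, 1 member was higher in the VM pair, against 1.08%. Between the CORIN+ arrays 1 was then higher in culture, against 0.846%, and 2 were lower, against 1.71%, and between the CORIN- arrays 1 was higher, against 1.35%. The median log2 difference of the 9 members was -0.019 in the culture pair, 0.14 in the VM pair, -0.089 between the CORIN+ arrays and 0.020 between the CORIN- arrays, beside 0.0024, -0.037, 0.016 and -0.020 over all clusters. The medians thus stayed near 0. Members past 2-fold lay on both sides between the CORIN+ arrays only. In the VM pair and between the CORIN- arrays they were all higher.

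**Figure D2:**
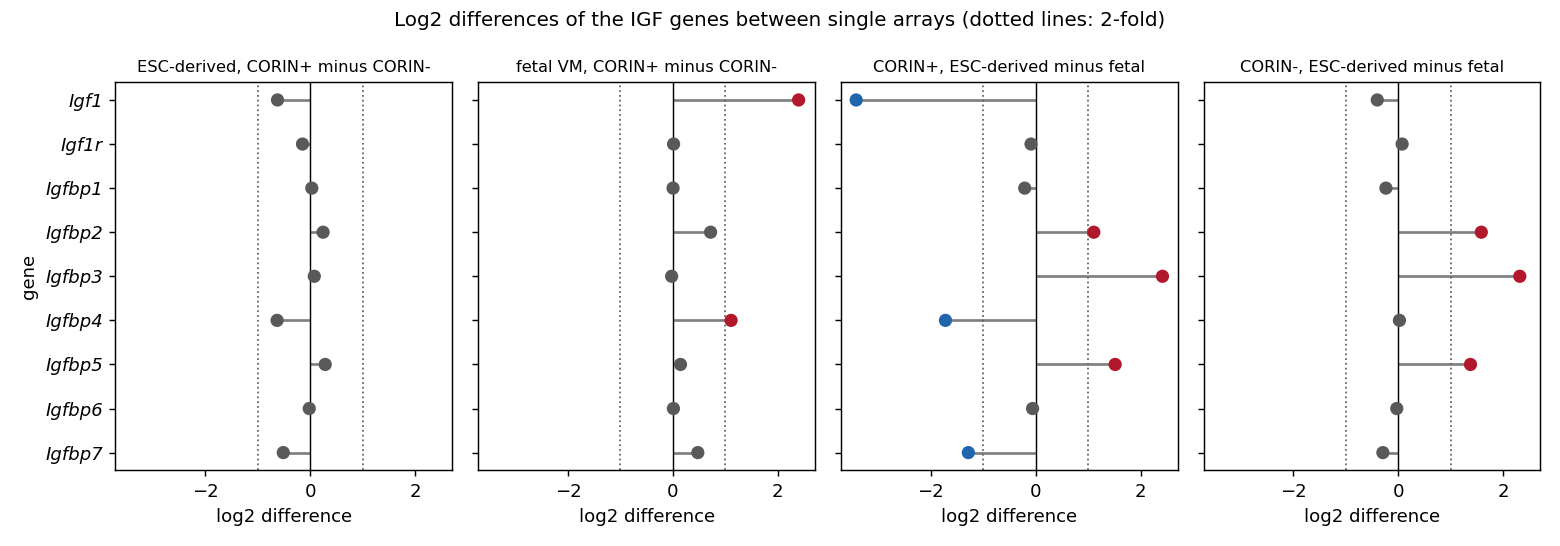
Log2 difference (horizontal axis) of each of the 9 genes in the 4 comparisons of single arrays, with dotted lines at 2-fold, red points at least 2-fold higher and blue points at least 2-fold lower. In the VM pair Igf1 (2.40) and Igfbp4 (1.11) pass 2-fold, and between the CORIN+ arrays 3 genes lie on each side, from Igf1 (-3.42) to Igfbp3 (2.42).

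Of the members, 4 lie in the genome as neighbours. In the RefSeq annotation of GRCm38.p6, Igfbp2 and Igfbp5 adjoin on chromosome 1 and Igfbp1 and Igfbp3 adjoin on chromosome 11, with 0 annotated genes between them in either case. Igfbp2 and Igfbp5 shared their pattern, as both were at least 2-fold higher in each culture array than in the VM array of the same CORIN state. Igfbp3, on chromosome 11, had this pattern too. Igfbp1 and Igfbp3 did not share a pattern, and all signals of Igfbp1 lay in the dim part of the range. Igfbp1 had log2 differences of -0.21 in CORIN+ cells and -0.24 in CORIN- cells between cultured and VM arrays, where Igfbp3 had 2.42 and 2.31.

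The sequences just before the annotated transcription starts are shown for 2 groups of genes that passed 2-fold in the same comparisons. Each sequence has 150 bases on the gene's strand and ends at the last base before the start. They come from the RefSeq promoter table of GRCm38.p6, which holds 10 windows for the 9 genes. Igfbp2 has 2 of them, and the one of the upstream start is shown. Capitals mark matches, on either strand, to the TATA box letters TATAAA, the AT-rich variants TATATA and, one letter longer, TATTTAA, the GC box GGGCGG or the E box CACGTG. These motifs were picked after the windows had been read. The first 3 genes were higher in cultured cells and lie at chr1:72824330-72824479 (plus strand), chr11:7213924-7214073 (minus strand) and chr1:72874866-72875015 (minus strand).
Igfbp2: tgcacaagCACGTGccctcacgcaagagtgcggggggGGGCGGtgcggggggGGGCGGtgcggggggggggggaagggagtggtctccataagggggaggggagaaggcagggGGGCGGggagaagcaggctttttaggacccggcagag
Igfbp3: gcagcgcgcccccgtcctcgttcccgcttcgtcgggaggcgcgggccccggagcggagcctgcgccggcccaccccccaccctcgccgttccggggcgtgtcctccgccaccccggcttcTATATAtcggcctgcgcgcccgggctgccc
Igfbp5: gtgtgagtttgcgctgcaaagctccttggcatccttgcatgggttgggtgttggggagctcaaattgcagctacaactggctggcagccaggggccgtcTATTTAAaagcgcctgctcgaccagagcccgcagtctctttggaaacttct

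The other 2 genes were at least 2-fold higher in VM CORIN+ than in VM CORIN- cells and lie at chr10:87860961-87861110 and chr11:99041094-99041243, both on the plus strand.
Igf1: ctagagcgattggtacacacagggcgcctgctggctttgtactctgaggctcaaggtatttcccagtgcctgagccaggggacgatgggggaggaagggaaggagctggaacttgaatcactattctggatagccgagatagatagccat
Igfbp4: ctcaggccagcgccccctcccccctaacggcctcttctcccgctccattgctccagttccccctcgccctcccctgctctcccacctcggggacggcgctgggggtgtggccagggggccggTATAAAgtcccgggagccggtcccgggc

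None of the 5 searched letter strings occurred in every gene of either group. The AT-rich strings were searched separately and were picked after the windows had been read. The lack of a common string therefore cannot decide whether the genes share an element. The upstream window of Igfbp2 held 3 GC boxes and 1 E box, and its other window held none of the motifs searched. The window of Igfbp3 held TATATA starting 30 bases before the start, and that of Igfbp5 held TATTTAA starting 51 bases before it. Igfbp4 held TATAAA 28 bases before its start, and Igf1 held none of the 5. The window of Igfbp7, which stayed under 2-fold in the VM pair and is not shown, held 4 GC boxes. Over all 32851 windows of 250 bases before a start, 12.4% held TATAAA, 5.25% TATATA, 4.18% TATTTAA, 32.7% the GC box and 6.02% the E box. In such windows G and C made up 67.2% of bases for the upstream window of Igfbp2 and 56.4% for the other, 73.2% for Igfbp3, 58.8% for Igfbp5, 52.8% for Igf1 and 69.2% for Igfbp4, beside a median of 52.4%. These matches describe letters in a window and were not tested against the expression values.

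For each member whose 4 signals spanned at least 1 on the log2 scale, the genes with the most similar profile were taken by the Euclidean distance over the 4 arrays after each gene was centred on its own mean. Igf1 was closest to Abca9, Pf4 and Penk, at distances of 0.27, 0.29 and 0.29. Pf4, a chemokine of platelets and macrophages, was at 2.71 in the VM pair, and Penk, the enkephalin precursor, at 2.21. Igfbp4 was closest to the homeobox gene Meox2 (0.11), the laminin gene Lama1 (0.11) and Rbms3 (0.16), and Igfbp7 to Sertad4 (0.11), the sialyltransferase gene St3gal1 (0.14) and Adam19 (0.19). Of the genes higher in culture, Igfbp2 was closest to the desaturase gene Degs1 (0.035), Adamts1 (0.077) and Fhod1 (0.094). Igfbp5 was closest to Grhpr (0.067), the integrin gene Itga3 (0.088) and Arap2 (0.092). Igfbp3 was closest to the hepatocyte growth factor receptor gene Met (0.14), Bnip3 (0.15) and Nup62cl (0.24). With 4 points per profile, these distances are a description.

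The other genes of the IGF system were read from 5 lists that include the 9 members. Their counts are to be read beside the shares of all clusters past 2-fold given above for each comparison. Igf2, the main IGF ligand before birth, had log2 signals of 13.24 in cultured CORIN+ cells, 13.20 in cultured CORIN- cells, 13.01 in VM CORIN+ cells and 11.30 in VM CORIN- cells. Only the VM CORIN- array stood apart, so that Igf2 was 3.27-fold higher in VM CORIN+ cells, like Igf1, but level between the CORIN+ arrays (0.22), unlike Igf1. Between the CORIN- arrays Igf2 was 3.72-fold higher in culture, the 1 ligand or receptor gene past 2-fold there. Of the 7 measured ligand and receptor genes, Igf1, Igf2 and Insrr were at least 2-fold higher in VM CORIN+ cells, with Insrr, an orphan relative of the insulin receptor, at the threshold (2.01-fold). The insulin receptor gene Insr had a log2 difference of -0.36 in the VM pair, and Igf2r, whose product clears IGF2, one of 0.39. The Insrr difference fell below 2-fold under quantile normalization (0.98), centred arrays (0.94) and 32 added to each linear signal (0.89), which leaves Igf1 and Igf2.

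With the 7 Igfbp genes, 13 binding proteins and relatives were measured. Of these, 4 were at least 2-fold higher and 3 lower in culture between the CORIN+ arrays, against 2.98% and 4.37% of all genes. Between the CORIN- arrays 5 were higher and 1 lower, against 4.54% and 3.52%. These counts include the members. Of the 6 genes that are not members, 1 was higher and 1 lower between the CORIN+ arrays, and 2 were higher and 1 lower between the CORIN- arrays. Igfbpl1, an IGFBP-like gene, was 2.23-fold lower in cultured CORIN+ than in cultured CORIN- cells. It was also 6.07-fold lower in cultured than in VM CORIN+ cells and 2.93-fold lower in the CORIN- cells, the opposite of Igfbp2, Igfbp3 and Igfbp5. Ccn2 (connective tissue growth factor), which shares the N-terminal domain of the family, was 3.21-fold and 4.45-fold higher in the cultured cells. Ccn1 was 2.27-fold higher in the CORIN- cells and at 1.23-fold in the CORIN+ cells.

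Of 8 genes of proteases that cut binding proteins and of their inhibitors, none reached 2-fold in the culture pair. In the VM pair, Mmp2, a gelatinase, and Timp1, an inhibitor of such proteases, were 3.52-fold and 2.88-fold higher in CORIN+ cells. Between the sources, the stanniocalcin genes Stc1 and Stc2, whose products inhibit PAPP-A, were 2.53-fold and 3.10-fold higher in cultured CORIN+ cells and 2.07-fold and 3.40-fold higher in the CORIN- cells. The serine protease gene Htra1 was 2.55-fold and 4.23-fold higher. Mmp2 (2.76-fold) and Timp1 (2.15-fold) were higher in the cultured CORIN- cells, which makes 5 of 8 genes there, against 4.54% of all genes. The list had a median log2 difference of 1.08 there, beside -0.015 over all genes. Between the CORIN+ arrays 3 of 8 genes were higher, against 2.98%, and the list median was -0.36, beside 0.022 over all genes. Between the CORIN- arrays the count was 4 under quantile normalization, where Stc1 was at 0.99. It was 3 with 32 added to each linear signal, where Stc1 was at 0.97 and Timp1 at 0.94. Pappa, which encodes PAPP-A, had differences of -0.79 in the culture pair and -0.76 in the VM pair.

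Of 15 measured adaptors and effectors inside the cell, none reached 2-fold in the culture pair and 1 did in the VM pair, the adaptor gene Shc1 (2.21-fold higher in CORIN+ cells). Pik3r1, the regulatory subunit of phosphatidylinositol 3-kinase, was 2.25-fold and 2.33-fold higher in cultured than in VM CORIN+ and CORIN- cells. In the CORIN- cells the receptor substrate gene Irs1 (2.58-fold), Shc1 (2.97-fold) and the transcription factor gene Foxo1 (3.17-fold) were higher too. Averaged over all of its clusters, Irs1 was at 0.97 on the log2 scale, below 2-fold. The list medians were 0.064 in the VM pair, 0.27 between the CORIN+ arrays and 0.21 between the CORIN- arrays. Igf2bp1 and Igf2bp3, which bind Igf2 mRNA, had log2 differences of at most 0.30 in size after rounding, and none neared 2-fold.

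**Figure D3:**
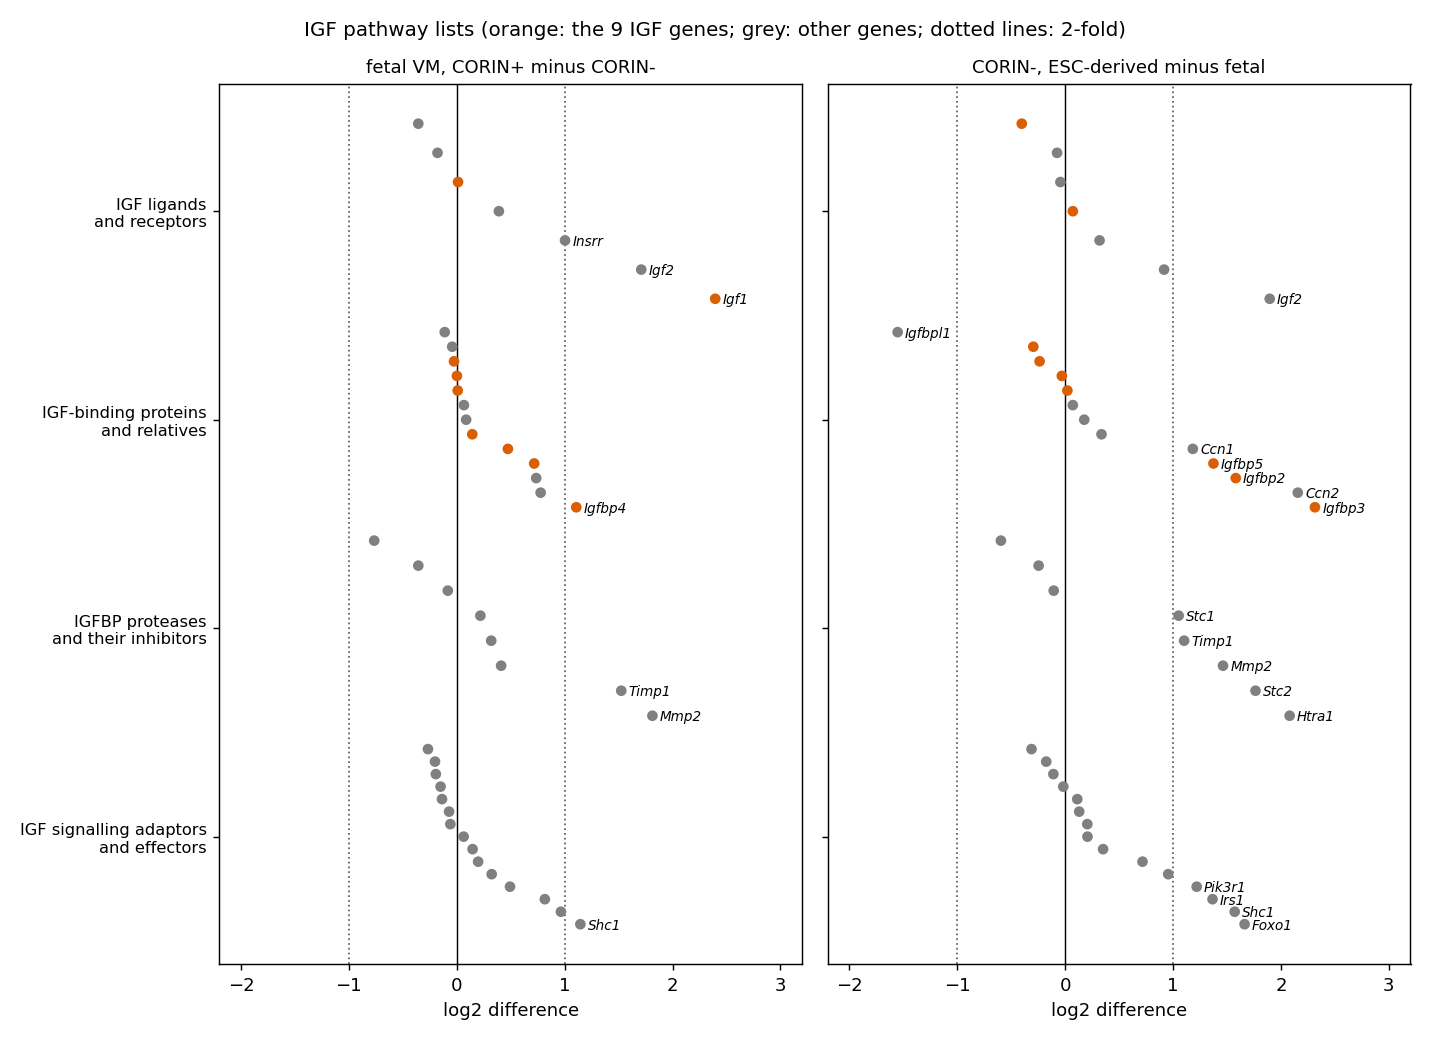
Log2 difference (horizontal axis) of each measured gene in 4 lists of the IGF system, for VM CORIN+ minus VM CORIN- cells (left) and for cultured minus VM CORIN- cells (right), with 1 array per population. Orange points are the 9 IGF genes, grey points other genes, dotted lines mark 2-fold, and genes past it are named. On the left, Igf1 (2.40), Mmp2 (1.81) and Igf2 (1.71) lie farthest right, and on the right Igfbp3 (2.31), Ccn2 (2.16) and Htra1 (2.08) do, with Igfbpl1 (-1.55) alone on the far left.

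Several marker lists were higher in VM CORIN+ than in VM CORIN- cells, where 2.67% of all clusters were at least 2-fold higher. The floor plate list was among them, with a median of 0.74 and 4 of 9 genes at least 2-fold higher. Corin, whose direction was set by the sort, is 1 of these 4. Neuronal genes ran the other way, with a median of -0.54. Of 11 macrophage genes, 10 were at least 2-fold higher in VM CORIN+ cells, among them the complement genes C1qa, C1qb and C1qc at 1.90, 4.91 and 3.67 on the log2 scale. The median of the list was 4.12. The summed linear signal of the macrophage list was 1092 and 1107 in the cultured CORIN+ and CORIN- arrays, 19448 in VM CORIN+ cells and 1185 in VM CORIN- cells, and outside the VM CORIN+ array all 11 genes lay below the median signal. The 13 genes of mesenchyme and meninges were all at least 2-fold higher in VM CORIN+ cells, with a median of 2.18 and the collagen genes Col1a1, Col1a2 and Col3a1 at 1.84, 2.03 and 1.70. Their summed signal was 5465, 9159, 26965 and 5871 in the same order of arrays. Erythroid genes ran the same way in the VM pair, with 5 of 7 at least 2-fold higher in VM CORIN+ cells and a median of 1.36.

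In the culture pair these lists parted. There 0.353% of all clusters were at least 2-fold higher in the CORIN+ array and 0.468% at least 2-fold lower. The macrophage genes had a median difference of -0.015 and none reached 2-fold. The mesenchyme genes had a median of -0.83, with 12 of 13 lower in cultured CORIN+ cells and 4 of them at least 2-fold. Pluripotency genes had the lowest median of the 10 marker lists there, -1.85, with all 8 lower and 6 of them at least 2-fold. All 10 neuronal genes were lower as well, 2 of them at least 2-fold, with a median of -0.63. In the same pair Igf1 was at -0.62, Igfbp4 at -0.63 and Igfbp7 at -0.51. The endothelial list had medians of -0.41 in the culture pair and 0.42 in the VM pair, with 2 of 10 genes past 2-fold in each, and the pericyte list had medians of -0.21 and 0.26. The part of these cell types in the levels of Igf1, Igfbp4 and Igfbp7 was not tested. In sorted bulk RNA, fewer cells of a type and less RNA per cell cannot be told apart.

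Beside the genes that were high in culture, other lists differed between the sources. Of all clusters, 2.7% were at least 2-fold higher in culture between the CORIN+ arrays and 3.94% between the CORIN- arrays. All 10 neuronal genes were lower in the culture arrays, with medians of -1.44 in CORIN+ cells and -1.53 in CORIN- cells. Floor plate genes were higher, with medians of 1.22 and 1.39. Neural progenitor genes had medians of -0.64 and -0.70. Pluripotency genes stood out in 1 array, with a summed signal of 4547 in cultured CORIN- cells against 1058 to 1122 in the others. Of 8 visceral endoderm genes, 3 were at least 2-fold higher in each culture array, namely Apob (1.15 in CORIN+ and 1.79 in CORIN- cells on the log2 scale), Cubn (1.31 and 1.11) and Rbp4 (4.25 and 3.31), and the other 5 lay under 2-fold. Of 7 erythroid genes, 6 were lower in each culture array, with list medians of -3.22 and -1.31. The part of any of these in the levels of Igfbp2, Igfbp3 and Igfbp5 was not tested.

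**Figure D4:**
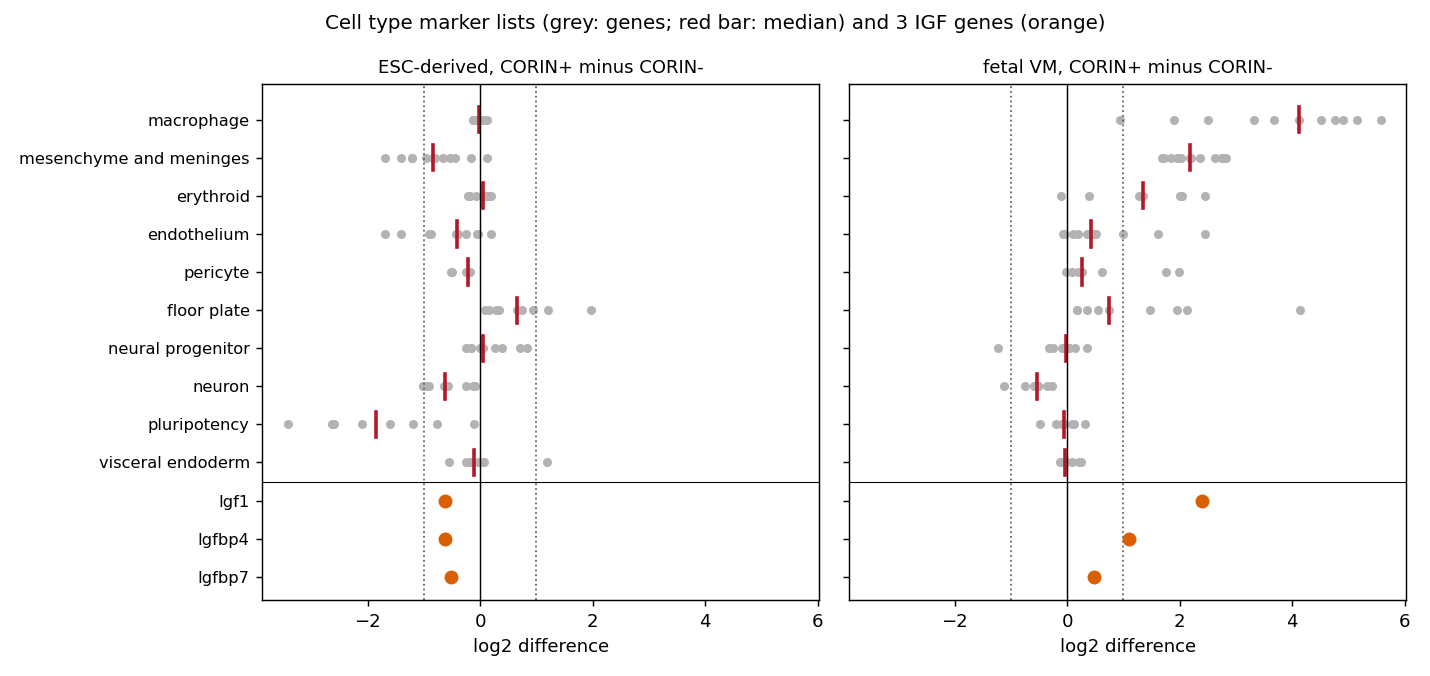
Log2 difference (horizontal axis) of the genes of 10 cell type marker lists (grey points, with the list median as a red bar) and of Igf1, Igfbp4 and Igfbp7 (orange points), for CORIN+ minus CORIN- in cultured cells (left) and in the fetal VM (right). Dotted lines mark 2-fold. On the right the macrophage (median 4.12) and mesenchyme (2.18) lists lie far to the right. On the left the list medians run from -1.85 (pluripotency) to 0.66 (floor plate), with mesenchyme at -0.83, neuron at -0.63 and macrophage at -0.015. The 3 IGF genes lie left of 0 there.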

How the data were processed

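Per the labels and methods, total RNA of each sorted population was amplified with a whole-transcript kit and run on an Affymetrix whole-transcript array. The authors deposited log2 signals of 28856 transcript clusters for the 4 arrays and name GeneSpring as their software. How probes were summarized and arrays normalized, whether clusters were filtered and which genome build was used is not given in the sources used here. Detection calls and background values were not used. The median log2 signal ran from 7.97 to 8.03 over the arrays, whose number limits the precision.

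Groups were taken from the sample labels. Of the clusters, 21789 have 1 gene symbol in the platform annotation, 1621 have several and 5446 are unnamed here. Gene identifiers were matched to RefSeq names of GRCm38.p6, which left 19938 genes, each represented by its cluster with the highest mean signal. The members have 1 cluster each, and no cluster with several symbols names one. Log2 signals were subtracted between arrays and counted from 2-fold, with no test because each population has 1 array. Of 145 entries in 15 gene lists, 138 had a cluster. By rule the text names all members, genes of the IGF lists past 2-fold, up to 3 markers a list and the 3 nearest profiles. Insr, Igf2r, Pappa, Igf2bp1 and Igf2bp3 were named after their values were seen. Igf1os was also named outside the rule. Members and lists were chosen with earlier results of these data known. The counting was tested on simulated data. Alternatives were quantile normalization, centring of each array on its median, 32 added to linear signals, a filter at the 20th percentile of signal, thresholds of 1.5-fold and 3-fold, and averaging the clusters of a gene. Python 3.11.15, numpy 2.4.6, pandas 2.3.3 and matplotlib 3.10.9 were used.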

Additional observations from a re-analysis of the deposited data

Results flagged for a closer look

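In Igf1 and Igfbp4, the CORIN+ array lay on opposite sides of the CORIN- array in cultured and VM cells, by at least 1.5-fold each. Igf1 was at -0.62 in the culture pair and 2.40 in the VM pair, a gap of 3.02 on the log2 scale. With 32 added to each linear signal the Igf1 difference in the culture pair was -0.50, or 1.42-fold, so that Igf1 no longer reached 1.5-fold there. Igfbp4 was at -0.63 and 1.11, a gap of 1.74. Igfbp7 ran the same way, at -0.51 and 0.47, but did not reach 1.5-fold. With 1 array per population the difference between the sources was not tested.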

How the results depend on the processing

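At a threshold of 1.5-fold, 2 members (Igf1 and Igfbp4) were counted as lower in cultured CORIN+ cells, in place of 0, and 3 (Igf1, Igfbp2 and Igfbp4) as higher in VM CORIN+ cells, in place of 2. The shares of all clusters at these thresholds stand beside the counts above. At 3-fold, the threshold left 1 member in the VM pair (Igf1), 3 between the CORIN+ arrays (Igf1, Igfbp3 and Igfbp4) and 1 between the CORIN- arrays (Igfbp3). Under quantile normalization, centred arrays, 32 added to each linear signal, the filter and the mean over clusters, the counts of members were 0, 2, 6 and 3 in the 4 comparisons, as without them. Of 180 differences of single members under these 5 settings, 1 shifted past the scaled median absolute deviation of its comparison, that of Igf1 between the CORIN+ arrays (-3.09 with 32 added). Signs changed only in differences close to 0, in Igf1r, Igfbp1, Igfbp4 and Igfbp6, under quantile normalization (4 differences) or centring (5 differences). Among the other genes of the IGF system, Insrr, Stc1, Timp1 and Irs1 each lost a call of 2-fold under at least 1 setting, as given above. None of the 100 medians of the pathway lists moved by that much, while 4 of 200 medians of the marker lists did. The members are each represented by 1 cluster above the 20th percentile, so the filter and the mean over clusters could not change their differences. Leaving out an array was not possible, because each population has 1 array. Signals in the dim part of the range (Igfbp1, Igfbp6, Igf1 outside VM CORIN+ cells, and Igfbp3 in the VM arrays) limit what their folds can show.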

Other observations

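Igf1os, a long non-coding RNA named after Igf1, has a cluster of its own on the array. Its signal was 5.42 in cultured CORIN+ cells, 5.47 in cultured CORIN- cells, 5.46 in VM CORIN+ cells and 5.49 in VM CORIN- cells, on the log2 scale. It thus stayed level and below the 20th percentile of each array, where Igf1 spanned 3.42 on the log2 scale.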
